A study of Homo sapiens with 6 samples.

Results

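Metallothioneins and the genes tied to zinc export were followed through RNA-seq of MDA-MB-231, an established human line of triple-negative breast cancer, with and without Parishin B (PB). The members were the 8 rows, of 61806 in the deposited gene table, whose gene symbol was MT1E, MT1F, MT1G, MT1M, MT1X, MT2A, MTF1 or SLC30A1. Samples labelled Control (n = 3) were compared with samples labelled ParishinB (n = 3). Per the study's methods and results, the ParishinB samples were exposed to 20 µM PB for 24 h. PB is a plant-derived glycoside that the study examined as an inhibitor of the pseudokinase TRIB3, and RNA-seq was used to look for the genes that PB affects. The control vehicle used for RNA-seq is not given in the sources used here. Only this line was sequenced, and the labels do not say whether the samples of a group came from separate cultures. The p-values therefore measure the spread between these samples, which the main fit pooled over genes and which may be technical.

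Metallothioneins are small, cysteine-rich proteins that bind zinc and copper ions, buffer their concentration in the cytosol and take up toxic metals such as cadmium. Their genes lie side by side in a cluster on the long arm of chromosome 16. Zinc is sensed by the transcription factor MTF1, which binds metal response elements in the promoters of metallothionein genes and of SLC30A1. SLC30A1 encodes the zinc exporter ZnT1 of the plasma membrane. A rise of metallothioneins together with SLC30A1 is therefore the known response to zinc or cadmium, while metallothionein genes also respond to glucocorticoids and oxidants.

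The promoters of the members are shown because the metal response elements in them are what MTF1 binds. The sequences are 250-base windows that end at the base before the RefSeq start of the gene, from GRCh38.p14, and 4 of the 8 members had one. They are written 5′ to 3′ on the strand of the gene, with capitals at each match to the core of the metal response element. The core was searched as TGCACNC and TGCGCNC on both strands, so a capital run on the opposite strand reads as the reverse complement, and no 2 matches overlapped. The windows are MT2A (chr16:56608334-56608583, plus strand), MT1X (chr16:56682220-56682469, plus strand) and SLC30A1 (chr1:211579162-211579411, minus strand).
MT2A: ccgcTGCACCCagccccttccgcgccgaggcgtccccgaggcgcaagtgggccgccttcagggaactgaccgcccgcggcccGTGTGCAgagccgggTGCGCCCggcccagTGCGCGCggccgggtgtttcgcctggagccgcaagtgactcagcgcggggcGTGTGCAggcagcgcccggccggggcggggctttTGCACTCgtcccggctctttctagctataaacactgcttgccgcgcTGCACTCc
MT1X: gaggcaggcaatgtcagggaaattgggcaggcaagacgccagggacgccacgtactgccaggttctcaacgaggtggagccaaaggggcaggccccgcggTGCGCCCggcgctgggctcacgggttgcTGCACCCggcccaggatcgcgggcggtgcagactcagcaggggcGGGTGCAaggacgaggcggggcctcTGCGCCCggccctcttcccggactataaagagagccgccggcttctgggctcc
SLC30A1: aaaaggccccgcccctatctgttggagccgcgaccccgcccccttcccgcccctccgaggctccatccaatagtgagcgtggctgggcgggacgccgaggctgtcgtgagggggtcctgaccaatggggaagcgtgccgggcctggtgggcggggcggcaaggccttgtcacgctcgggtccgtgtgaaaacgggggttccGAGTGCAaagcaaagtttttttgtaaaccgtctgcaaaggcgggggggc

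The MT2A window held 7 cores, 5 on the strand of the gene and 2 on the other. The MT1X window held 4 cores, 3 on the strand of the gene and 1 on the other, and a TATAAA box stood in the last 40 bases of both metallothionein windows. SLC30A1 had 1 core, on the opposite strand and 49 bases before the start, and the window of MTF1 (chr1:37859593-37859842, minus strand) had 0. Among the 35116 RefSeq promoter windows of this length, 24.8% held at least 1 core, 0.37% at least 4 and 0.0313% at least 7. The matches describe these letters only, and no binding was measured.

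PB-treated cells had more MT1X and more MT2A mRNA, while MTF1 and SLC30A1 did not pass the test. MT1X, a minor metallothionein of these cells, rose 2.63-fold, and MT2A, the main one, rose 1.23-fold. The other 4 metallothionein members, MT1E, MT1F, MT1G and MT1M, were at or near 0 counts in both groups. The test was restricted to genes whose FPKM (fragments per kilobase of exonic length, scaled to library size) averaged 0.1 or more, which left 24200 genes and 4 of the 8 members. Among these 4, 2 were higher and 0 lower with PB at an adjusted p of at most 0.05 in edgeR's quasi-likelihood test with Benjamini-Hochberg adjustment over all tested genes. Of all tested genes, 24.1% were higher and 26.1% lower at the same threshold, 50.2% in all, so calls were common in this comparison. MT1X was the 1 member that also passed the line for a differentially expressed gene (DEG), a log2 fold change of 1 or more, up or down. That line was passed by 12.1% of the tested genes, 5.36% upward and 6.73% downward. In bulk RNA a difference in the number of expressing cells and a difference in mRNA per cell cannot be told apart.

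**Figure D1:**
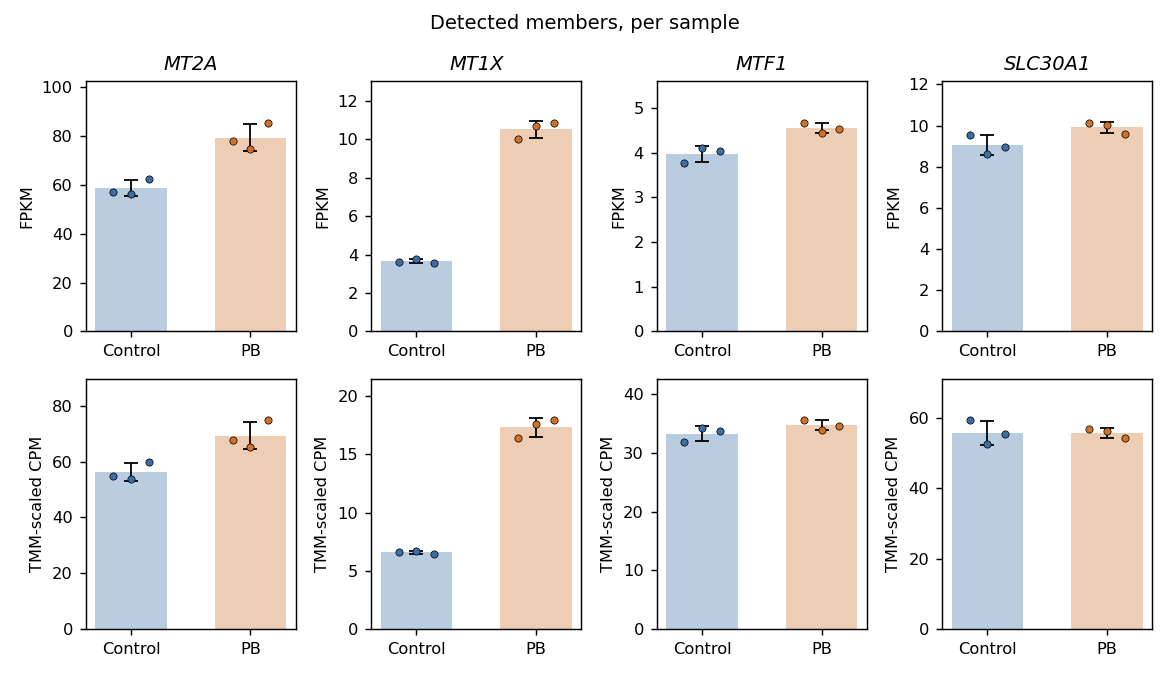
The 4 detected members in each sample, as deposited FPKM in the upper row and as CPM (counts scaled to library size) with TMM factors in the lower row, with bars for the mean of 3 samples, error bars for the SD and points for the samples. MT1X lies at 3.56 to 3.75 FPKM in control and 9.99 to 10.85 FPKM with PB, while the SLC30A1 bars are level at 55.81 TMM-scaled CPM.

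The libraries held between 15681655 and 21986948 counts, so that the floor of 3 counts corresponded to 0.136 to 0.191 CPM, for counting error only. TMM normalization, which sets the bulk of genes equal between samples, scaled the control libraries by 0.9485 to 0.9615 and the PB libraries by 1.0441 to 1.0491. Over all tested genes, the log2 fold change had a median of 0.0106 with these factors and of 0.1378 with library size alone. FPKM values carry no TMM factor and so sit higher with PB by about this shift. Replicates of one group differed by a chi-square per degree of freedom of 1.45 to 1.92, so none repeated the counts of another, and all 6 were counted as separate samples. Values this near 1 cannot show whether the samples came from separate cultures. The mesenchymal markers of MDA-MB-231 were present, led by VIM at 603 FPKM in control and 635 FPKM with PB, although SPARC was below 1 FPKM in both groups. The estrogen and progesterone receptors, ESR1 and PGR, averaged at most 0.147 FPKM in either group.

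The libraries of the groups also differed in epithelial genes, and these values belong beside every result on the members. Of 16 luminal and epithelial markers, 14 were tested, 8 were lower and 2 higher with PB, and all 8 lower ones passed the DEG line. Over all tested genes, 26.1% were lower and 24.1% higher, and 6.73% passed the DEG line downward. The 16 markers summed to 443.2 to 449.9 FPKM in the control samples and 161.8 to 167.3 FPKM in the PB samples. KRT7, a simple-epithelium keratin, fell from 44.48 to 0.44 FPKM, and CDH1, which encodes E-cadherin, fell from 3.98 to 0.0133 FPKM. The epithelial transcription factors ELF3 and EHF fell from 1.99 to 0.00333 FPKM and from 0.477 to 0.0167 FPKM, and the keratin KRT8 fell from 107.3 to 38.93 FPKM. ESRP1, an epithelial splicing regulator, went the other way and rose from 0.397 to 1.35 FPKM. The other higher marker was ESR1, at 0.0733 FPKM in control and 0.147 FPKM with PB. The 8 mesenchymal markers summed to 1024 to 1051 FPKM in control and 955.9 to 960.7 FPKM with PB. Of them, 1 was higher and 7 lower, against 24.1% higher and 26.1% lower over all tested genes. TGFBI fell from 40.9 to 15.8 FPKM, FN1 from 7.25 to 2.90 FPKM and CAV1 from 71.1 to 34.9 FPKM, all past the DEG line, and VIM was called lower at a log2 fold change of -0.059 after TMM despite its higher FPKM. The repressor ZEB1 was the 1 higher marker, at 0.12, and lost its call without the second PB sample (0.094, adjusted p = 0.0765, edgeR's quasi-likelihood test). In the whole table, 113 genes reached 30 counts in each control library yet stayed at 3 or below in each PB library, against 1 gene the other way, and 0 of these were members. The labels give the same line for both groups, and whether the groups were grown from the same culture of it is not given in the sources used here. The comparisons are therefore between the samples labelled Control and ParishinB, and the part of these differences in the results on the members was not tested.

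MT1X, a metallothionein with a broad tissue range, showed the largest fold between groups among the tested members. Its counts were 102, 111 and 135 in the control samples and 274, 289 and 355 in the PB samples. The deposited FPKM values were 3.62, 3.75 and 3.56 in control and 9.99, 10.67 and 10.85 with PB, or 3.64 ± 0.0971 and 10.5 ± 0.454 (SD, n = 3). Every PB sample lay above every control sample, with a wide gap between the groups and little spread inside them. Groups that do not overlap in FPKM, in either direction, were found for 55.6% of all tested genes. The log2 fold change was 1.40 (standard error 0.10), a fold of 2.63 (95% interval 2.29 to 3.03), with an adjusted p of 1.778e-41 in edgeR's quasi-likelihood test. The gene lies on the plus strand of chromosome 16 from 56682470 to 56684196 (ENSG00000187193, hg38), and the authors' exonic length of 1727 bases covers the whole span, introns included. A second row, ENSG00000259827, starts at the same base on the same strand and had 0 counts in the 6 samples. Of the 401 50-base words of the principal GENCODE 29 transcript of MT1X, 45.1% also occurred in another gene. Other metallothionein rows held 64 of them and 1 gene outside the family held 117. Whether that gene is the overlapping row was not examined. The MT1X count is uncertain where reads match both.

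MT2A, the metallothionein most widely found in human cells, gave the highest FPKM among the members in every sample. It had 849, 884 and 1255 counts in control and 1131, 1073 and 1480 with PB. The FPKM values were 56.94, 56.46 and 62.45 in control and 77.9, 74.86 and 85.45 with PB, or 58.6 ± 3.33 and 79.4 ± 5.45 (SD, n = 3). The groups did not overlap, although the third PB sample stood above the other two. TMM-scaled CPM, which takes out the shift between libraries, was 54.87, 53.67 and 59.78 in control and 67.87, 65.26 and 74.8 with PB. The groups stayed apart on this scale too, as 54.9% of all tested genes did in either direction, with a narrower gap. The log2 fold change was 0.30 (standard error 0.043), a fold of 1.23 (95% interval 1.16 to 1.31), with an adjusted p of 1.467e-11 in edgeR's quasi-likelihood test. MT2A occupies bases 56608584 to 56609497 of chromosome 16 on the plus strand (ENSG00000125148), and 4.89% of its 737 50-base words occurred in another gene.

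The remaining metallothionein members were not detectable at this depth or barely so. MT1F had 1, 2 and 4 counts in the control samples and 0 in each PB sample. MT1E had 1 count in the second control sample and 0 in the other 5 samples. MT1G and MT1M had 0 counts in all 6 samples, and a count of 0 allows up to 0.182 to 0.255 FPKM of MT1G and up to 0.267 to 0.374 FPKM of MT1M in these libraries. None of these 4 genes entered the test, and no fold is given for them.

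**Figure D2:**
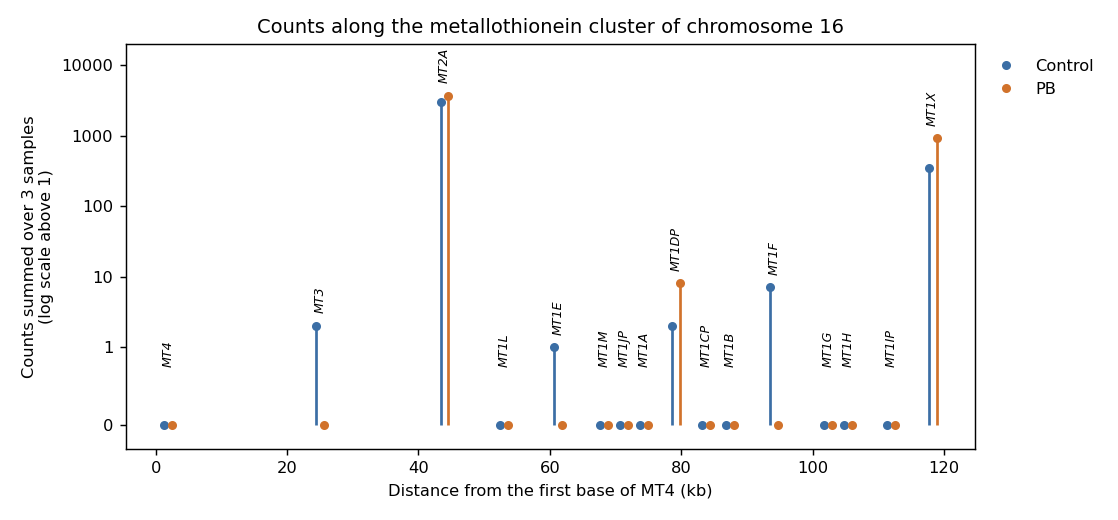
Counts summed over the 3 samples of each group along the metallothionein cluster of chromosome 16, on a scale that is logarithmic above 1, against the distance from the first base of MT4 in kilobases, with pins set apart slightly for the groups. MT2A and MT1X stand above 100 counts in both groups, and the other rows stay at 8 counts or fewer.

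The cluster held 16 metallothionein rows over 119.124 kb of chromosome 16, from 56565073 to 56684196, and 6 of them had any count. Besides MT2A, MT1X, MT1E and MT1F these were MT3, the growth inhibitory factor of brain, with 2 counts in control and 0 with PB, and the pseudogene MT1DP, with 2 and 8. Detected expression thus lay at separate places of the cluster, with silent rows such as MT1L, MT1A, MT1B and MT1H between MT2A and MT1X. Cores of the metal response element also stood in the promoter windows of undetected cluster genes, with 8 in MT1H, 3 in MT1B and 3 in MT4. MT1H thus had more cores than MT2A and 0 counts in all 6 samples. Over all 15 metallothionein genes and pseudogenes that are not members, 4 were tested and 0 were called in either direction, from MT1DP at a log2 fold change of 1.83 (adjusted p = 0.21, edgeR's quasi-likelihood test) to MT1P1 at -0.75 (adjusted p = 0.604, same test). Most of these rows are pseudogenes or close copies of other metallothionein genes, and their few counts are uncertain.

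MT1X took a larger share of the metallothionein mRNA pool in every PB sample than in any control sample, and MT2A a smaller one. The shares below are of the counts summed over all 21 metallothionein rows and do not depend on the scaling of the libraries. MT1X made up 10.61%, 11.01% and 9.636% of these counts in the control samples and 19.41%, 21.08% and 19.27% in the PB samples. No PB interval reached a control interval, since the exact Clopper-Pearson 95% limits ended at 13.11% in control and began at 17.37% with PB. The mean share was 10.4% ± 0.708 in control and 19.9% ± 1.01 with PB (SD, n = 3), a difference of 9.50 points. The share of MT2A was 88.5% ± 0.955 in control and 79.6% ± 1.14 with PB (SD, n = 3), although its own level rose. The exact two-sided permutation test over samples gave p = 0.1 for each of these shares, the smallest value that 3 samples against 3 can give.

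**Figure D3:**
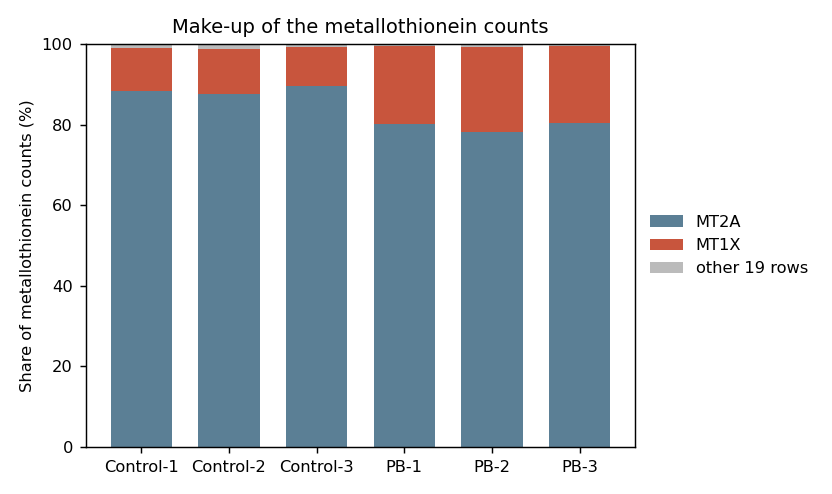
Share of the summed metallothionein counts taken by MT2A, MT1X and the other 19 rows in each sample, in percent. The MT1X band covers 9.636% to 11.01% of each control column and 19.27% to 21.08% of each PB column.

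The pool as a whole was larger in every PB sample than in any control sample, once scaled to library size. All metallothionein rows together had 961, 1008 and 1401 counts in control and 1412, 1371 and 1842 with PB. On the TMM scale this was 63.4 ± 2.97 CPM in control and 87.1 ± 5.26 CPM with PB (SD, n = 3), given as values with no test. On that scale, 26.7% of all tested genes had every PB sample above every control sample, so such a separation was common. Rows other than MT2A and MT1X added only 10, 13 and 11 counts in control and 7, 9 and 7 with PB, so the sum largely repeats MT2A and MT1X. Reads dropped as ambiguous or given to genes outside the family are not in this sum. Per deposited exonic length, MT2A exceeded MT1X by 15.06 to 17.54 times in control and by 7.016 to 7.876 times with PB, a ratio of FPKM values. The deposited lengths are 1727 bases for MT1X, introns included, and 914 bases for MT2A. Their principal GENCODE 29 transcripts have 450 and 786 bases, so the ratio would be smaller on spliced lengths.

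MTF1, the zinc-sensing activator of metallothionein genes, was present in every sample at a low level. Its counts were 492, 563 and 709 in control and 593, 558 and 685 with PB. The FPKM values were 3.77, 4.11 and 4.04 in control and 4.67, 4.45 and 4.52 with PB, which did not overlap. On the TMM scale the values were 31.79, 34.18 and 33.77 CPM in control and 35.58, 33.94 and 34.62 CPM with PB, and here the groups overlapped. The log2 fold change was 0.06 (standard error 0.057), with a 95% interval of the fold from 0.964 to 1.13 and an adjusted p of 0.413 in edgeR's quasi-likelihood test. With library size alone in place of TMM the value was 0.19 and passed the test (adjusted p = 0.00179, edgeR's quasi-likelihood test), so the call on MTF1 rested on the scaling. MTF1 lies on the minus strand of chromosome 1 from 37809574 to 37859592 (ENSG00000188786) and has 7989 exonic bases. An antisense row inside it, ENSG00000235673, had 1 count over the 6 samples.

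SLC30A1, which moves zinc out of the cell, was level between the groups once the libraries were scaled. It had 919, 868 and 1162 counts in control and 949, 925 and 1073 with PB. The FPKM values were 9.56, 8.6 and 8.97 in control and 10.14, 10.01 and 9.61 with PB, and every PB value was the higher. On the TMM scale the mean was 55.81 CPM in both groups, with an SD of 3.37 in control and 1.41 with PB, and the groups overlapped. The log2 fold change was 0.0002 (standard error 0.046), and the 95% interval of the fold ran from 0.94 to 1.06. The adjusted p was 1 in edgeR's quasi-likelihood test, while library size alone gave a log2 fold change of 0.13 that passed it (adjusted p = 0.00738). SLC30A1 lies on the minus strand of chromosome 1 from 211571568 to 211579161 (ENSG00000170385), and 0 of the 5425 50-base words of its transcript occurred in another gene. Among all tested genes, 34.1% had every PB sample above every control sample in FPKM and 26.7% in TMM-scaled CPM, so the separation of MTF1 and SLC30A1 on the FPKM scale alone was a common pattern.

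**Figure D4:**
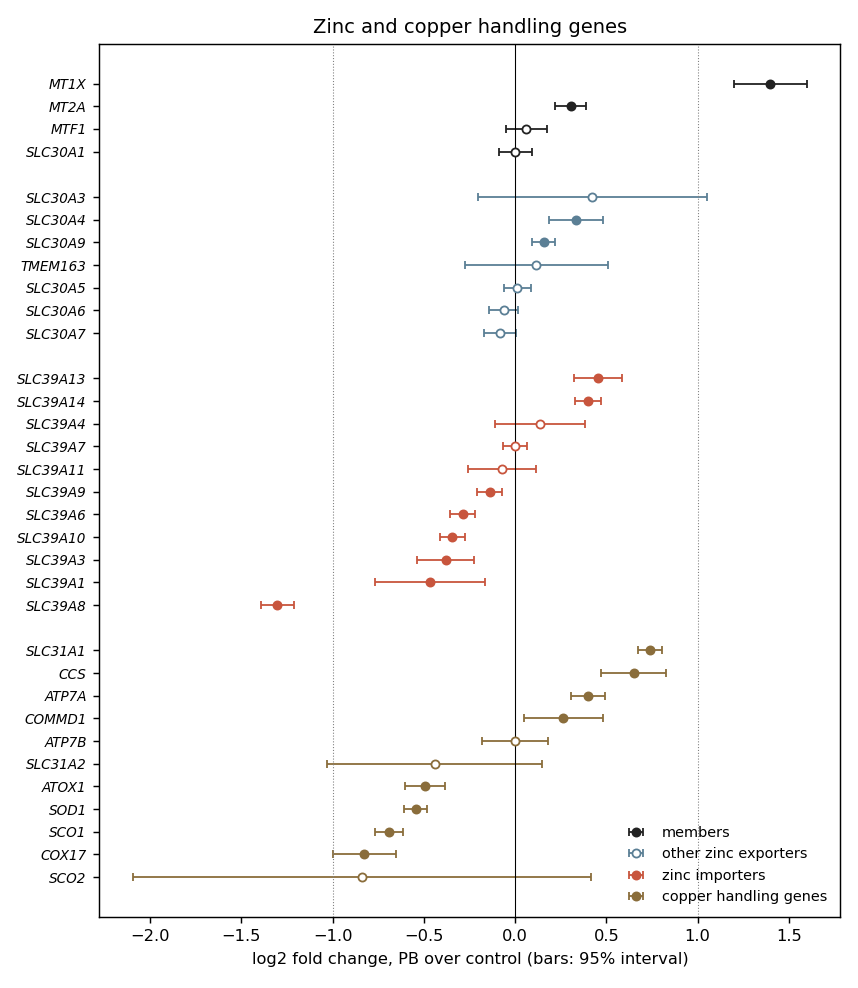
Log2 fold change of PB over control with its 95% interval from edgeR's quasi-likelihood fit for the tested members, other zinc exporters, zinc importers and copper handling genes, with filled points for an adjusted p of at most 0.05, open points for the rest and dotted lines at -1 and 1. MT1X at 1.40 and the importer SLC39A8 at -1.30 lie beyond the dotted lines with filled points.

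Zinc transporters fall into exporters of the SLC30 (ZnT) family, which move zinc out of the cytosol, and importers of the SLC39 (ZIP) family, which move it in. Of 10 other zinc exporters, 7 were tested, 2 were higher, 0 were lower and 5 did not pass. The shares over all tested genes were 24.1% higher and 26.1% lower. The median log2 fold change of this list was 0.116, against 0.0106 over all tested genes. The higher ones were SLC30A4, an exporter of endosomal vesicles, at a log2 fold change of 0.33 (from 2.03 ± 0.135 to 2.80 ± 0.153 FPKM, SD, n = 3), and SLC30A9 at 0.16 (from 17.7 ± 0.0208 to 21.7 ± 1.11 FPKM, SD, n = 3). The highest value in the list was SLC30A3, a synaptic vesicle exporter, at 0.42 without passing the test (adjusted p = 0.288, edgeR's quasi-likelihood test), at 0.143 and 0.21 FPKM. The lowest was SLC30A7 of the Golgi at -0.084 (adjusted p = 0.108, same test).

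The zinc importers moved in both directions. Of 14 listed, 11 were tested, of which 6 were lower, 2 were higher and 3 did not pass, with a median log2 fold change of -0.14, against 26.1% lower and 24.1% higher among all tested genes. The split depended on the scaling, since library size alone and limma on FPKM each gave 4 lower and 3 higher. SLC39A8, a plasma membrane importer of zinc, manganese and cadmium, was the 1 DEG of the list. Its FPKM values were 10.54, 9.8 and 9.32 in control and 4.61, 4.3 and 4.24 with PB. The groups were far apart, and the log2 fold change was -1.30 (standard error 0.046) with an adjusted p of 4.851e-176 in edgeR's quasi-likelihood test. SLC39A13, an intracellular importer, had the highest value at 0.45, and rose from 4.42 ± 0.361 to 6.64 ± 0.691 FPKM (SD, n = 3).

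Other importers are named here after their values were seen, because of their level or their relation to SLC39A8. SLC39A14, the closest relative of SLC39A8 in what it transports, rose by a log2 fold change of 0.40, from 11.8 ± 0.117 to 17.1 ± 0.395 FPKM (SD, n = 3). SLC39A10 and SLC39A6, which work as a complex at the plasma membrane, fell by 0.35 and 0.29 on the log2 scale. SLC39A7, which releases zinc from the endoplasmic reticulum, had a log2 fold change of -0.0003 and did not pass. The importers SLC39A1, SLC39A3 and SLC39A9 made up the rest of the lower calls.

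**Figure D5:**
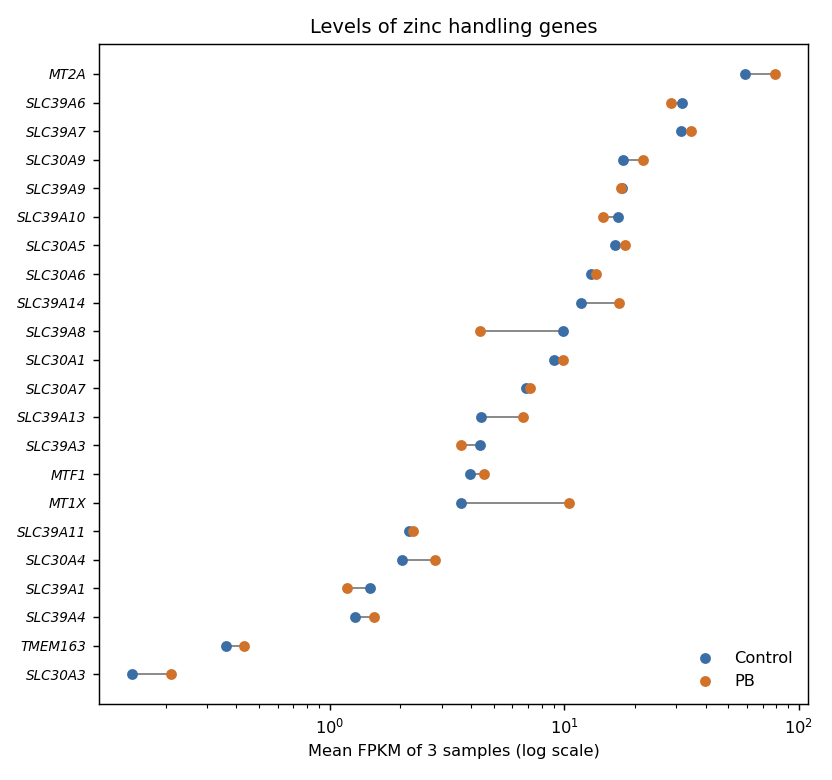
Mean FPKM of 3 samples in each group for the tested zinc handling genes, on a logarithmic axis, ordered by the level in control, with a line joining the groups of 1 gene. MT2A is at the top at 58.6 and 79.4 FPKM, and MT1X moves from 3.64 to 10.5 FPKM, from below SLC30A1 to just above it. The deposited length of MT1X includes its introns, so its place among the other genes depends on that length.

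Per exonic length, MT2A was the most abundant of the tested zinc handling genes in both groups, followed in control by SLC39A6 at 31.8 FPKM and SLC39A7 at 31.55 FPKM. The last 2 did not differ beyond their spread, with SDs of 1.66 and 0.711 FPKM. Among the members the control order in deposited FPKM was MT2A, SLC30A1 at 9.04 ± 0.484 FPKM, MTF1 at 3.97 ± 0.18 FPKM and MT1X at 3.64 ± 0.0971 FPKM (SD, n = 3). With PB, MT1X at 10.5 ± 0.454 FPKM stood beside SLC30A1 at 9.92 ± 0.276 FPKM, and MTF1 at 4.55 ± 0.112 FPKM came last (SD, n = 3). The ranges of MT1X and SLC30A1 with PB overlapped, so their order there is not resolved. The place of MT1X in both groups also rests on its deposited length of 1727 bases, introns included. Its principal transcript has 450 bases, and on that length its FPKM would be higher, so its rank against SLC30A1 and MTF1 is not settled. MT2A exceeded SLC30A1 by 5.956 to 6.962 times in control and by 7.479 to 8.892 times with PB, as a ratio of FPKM values.

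Copper, the other essential metal that metallothioneins bind, has its own importer and chaperones, and these were split. Of 11 copper handling genes, all 11 were tested, 4 were higher, 4 were lower and 3 did not pass, with a median log2 fold change of -0.441. Over all tested genes, 24.1% were higher and 26.1% lower. SLC31A1, the copper importer CTR1, was the highest at a log2 fold change of 0.74 and rose from 18.2 ± 0.569 to 33.2 ± 0.596 FPKM (SD, n = 3). The other higher genes were CCS, the copper chaperone of superoxide dismutase, ATP7A, a copper-exporting ATPase, and COMMD1. COMMD1 passed narrowly, at a log2 fold change of 0.26 (adjusted p = 0.0345, edgeR's quasi-likelihood test). With DESeq2, with no filter, or without control sample 1, control sample 3, PB sample 2 or PB sample 3, the higher calls numbered 3. The lower genes were SOD1, SCO1, COX17 and the chaperone ATOX1. The lowest value was that of SCO2 at -0.84, which did not pass (adjusted p = 0.291, edgeR's quasi-likelihood test).

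Stress genes that cells raise under cadmium were described for comparison, since cadmium is a classical inducer of metallothioneins. All 14 were tested, 7 were higher, 6 were lower and 1 did not pass, and the median log2 fold change was 0.168. The background was 24.1% higher and 26.1% lower over all tested genes. The DEGs among them were SLC7A11, the cystine importer, at 1.75 (from 7.25 to 26.8 FPKM), OSGIN1 at 1.51, HMOX1, which encodes heme oxygenase 1, at 1.00 (from 5.41 to 12.0 FPKM), and the chaperone HSPH1 at -1.08 (from 45.4 to 23.6 FPKM). HMOX1 was below the DEG line without the first control sample (0.94), the second control sample (0.97) or the second PB sample (0.96), and HSPH1 was short of it with library size alone (-0.95) and limma (-0.94). The higher genes were those of glutathione and NRF2-linked defence, including GCLM, TXNRD1, SRXN1 and NQO1, while the lower ones were the heat shock genes HSPA1A, HSPA1B, HSPH1, DNAJB1, BAG3 and HSPB1. The list thus moved in opposite directions within itself, beside the higher MT1X and MT2A.

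Glucocorticoid-inducible genes, a further class of stimuli to which MT2A is known to respond, showed no single direction. Of 11 listed, 10 were tested, of which 3 were higher, 4 were lower and 3 did not pass, with a median log2 fold change of -0.163. These numbers stand beside 24.1% higher and 26.1% lower among all tested genes. KLF9, a transcription factor induced by the receptor, was the highest at 0.78, and SGK1, a kinase induced by it, was the lowest at -0.91. With library size alone the number of higher genes was 5.

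The genes on either side of the metallothionein cluster differed among themselves in how they moved. Before MT4, BBS2, whose span on the other strand contains MT4, rose by a log2 fold change of 0.56, NUDT21, a subunit of the polyadenylation machinery, fell by 0.39, and OGFOD1 was at -0.096 (adjusted p = 0.0435, edgeR's quasi-likelihood test). The call on OGFOD1 was lost or its sign turned with DESeq2, limma, library size alone and other filters. After MT1X, the noncoding NUP93-DT was at -0.72 without passing (adjusted p = 0.275, edgeR's quasi-likelihood test), the nucleoporin gene NUP93 fell by 0.99, and HERPUD1, an endoplasmic reticulum stress gene 247946 bases away, rose by 1.60, from 4.67 ± 0.291 to 15.5 ± 0.681 FPKM (SD, n = 3). MT2A and MT1X were flanked by genes that moved up and genes that moved down. Over all tested genes, 24.1% were higher and 26.1% lower, so a mix of directions is not particular to this locus.

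The genes whose pattern over the 6 samples was most like that of MT2A were PIGO (r = 0.9993), the pseudogene AACSP1 (r = 0.9988), STARD7-AS1 (r = 0.9969), NUDT14 (r = 0.9965) and WASH3P (r = 0.9964), by Pearson correlation of log2(CPM + 1). This is a description across 12393 genes, and the 6 points share their library scaling and fall into the 2 groups. A correlation of at least 0.95 was reached by 1163 genes, so these 5 do not stand apart.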

How the data were processed

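The authors deposited raw counts per gene and FPKM values for 6 poly(A) RNA-seq samples, and 100% of 370836 FPKM values equalled the count scaled by the deposited exonic length and the sample's total count, within 0.0051. The submitters' processing notes name HTSeq 0.6.1, Cufflinks 2.2.1, DESeq2 and hg38 without roles. The aligner, the strand setting and the treatment of ambiguous reads are not given in the sources used here, so overlapping, antisense and near-identical genes are uncertain. The table has 0 columns without a sample.

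Counts were fitted with edgeR 4.0.16 (R 4.3.3; TMM, quasi-likelihood test, Benjamini-Hochberg over the 24200 genes averaging 0.1 FPKM or more), by group alone. The prior degrees of freedom of this fit were infinite, and its common biological coefficient of variation was 2.226%. The spread behind each p-value was thus pooled over genes, and a gene's own spread between replicates had no weight in it. Precision is set by 15681655 to 21986948 counts per sample. The alternatives were DESeq2 1.42.0, limma 3.58.1 on log2(FPKM + 0.1), library size alone, other filters, a replicate block and each sample left out. The procedure was tested on simulated data with 200 of 24200 genes changed by a log2 fold change of 1, up or down. The edgeR test recovered 196 of them and called 8 unchanged genes. With so few genes changed, the simulation cannot test the scaling on which the calls on MTF1 and SLC30A1 depend. Every simulated gene had the same biological coefficient of variation, above the fitted one, so the pooling of the spread was not tested. Changes below a log2 fold change of 1, such as that of MT2A, were not simulated. The intervals of the shares and the floors cover counting error only, while the fold intervals come from the standard error of the edgeR fit.

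Members and gene lists were chosen with earlier results of these data known. Besides the members, the text names the highest and lowest tested gene of each list and its DEGs, at most 6 a list, the 3 nearest tested neighbours on each side of the cluster and the 5 genes most correlated with MT2A. Other genes were chosen after their values were seen.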

Additional observations from a re-analysis of the deposited data

How the results depend on the processing

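MT1X and MT2A kept their direction and their call under all 12 alternatives run on them, with adjusted p from 2.291e-49 to 1.313e-06 for MT1X and from 2.509e-23 to 0.00115 for MT2A (edgeR's quasi-likelihood test, DESeq2 or limma). Leaving out 1 sample gave log2 fold changes of 1.37 to 1.43 for MT1X and 0.24 to 0.35 for MT2A. Library size alone raised the members called higher from 2 to 4, with MTF1 at 0.19 (adjusted p = 0.00179) and SLC30A1 at 0.13 (adjusted p = 0.00738), and the glucocorticoid-inducible genes called higher to 5. limma on log2(FPKM + 0.1), which uses no TMM factor either, gave 0.19 for MTF1 (adjusted p = 0.0198). With a log2 fold change line of 2 in place of 1, 0 members were DEGs. SLC30A1, whose value was near 0, changed sign with DESeq2 (-0.0008) and ranged from -0.038 to 0.041 when 1 sample was left out. Taken from FPKM rather than counts, the change in share was 5.82 points for MT1X and -4.15 points for MT2A, and leaving out 1 sample gave 8.92 to 9.82 and -9.39 to -8.32 points.

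Deviations of same-numbered samples correlated at -0.0535, 0.0368 and -0.0349, and those of other pairs at -0.0582 to 0.0859. The replicate numbers thus left no visible pairing, but values this near 0 cannot show how the samples were grown or handled. With the replicate block, MT1X was at 1.40, MT2A at 0.31 and SLC30A1 at -0.0007, no call on a member changed, and 11957 genes were called in place of 12151.

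Among genes that are not members, the sign turned for SLC30A7 (0.049 with library size alone, 0.047 with limma), OGFOD1 (0.037 with each) and SLC39A7 (0.13 with each, 0.0037 with no filter, 0.031 when genes had to average 1 FPKM, and -0.014 to 0.024 with 1 sample left out). The cause of these changes was not tested. Depth limits what can be said of MT1E, MT1F, MT1G and MT1M.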
